A study of Sus scrofa with 48 samples.

Results

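The myogenic regulators PAX7, MYF5, MYOD1, MYOG and MYF6, the MEF2 factors MEF2A, MEF2C and MEF2D, and the cofactor EYA1 were followed in pig longissimus muscle. A probe was assigned to a gene when the array's gene name equalled the symbol or when the probe description held it in brackets, and it was kept when its signal stood well above background on 12 or more of the 48 arrays. Of the 9 genes named, 8 had a probe, out of 8808 gene symbols with a tested probe on the array. No probe carried the name EYA1. All 20 probes found were kept, with 1 probe each for PAX7, MYF5 and MEF2D, 2 for MYOD1 and MYF6, 3 for MYOG, and 5 for MEF2A and MEF2C.

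The pigs were Large White barrows (castrated males) of 2 lines selected in opposite directions for residual feed intake (RFI), the feed eaten beyond what growth and maintenance predict. Low RFI pigs (RFIneg) are the efficient line and high RFI pigs (RFIpl) the less efficient line. Each line was fed ad libitum either the HF diet, high in fat and fiber, or the LF diet, low in both, with 12 pigs in each of the 4 groups and 1 array per pig. Each line is 1 selected population, so a line difference can include genetic drift as well as selection, and the diets differed in fat and fiber together.

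The 4 myogenic regulatory factors MYF5, MYOD1, MYOG and MYF6 are basic helix-loop-helix (bHLH) proteins that bind E-boxes as dimers with E proteins and switch on muscle genes. PAX7 marks satellite cells, the stem cells of adult muscle, MYF5 and MYOD1 act in their activation and commitment, MYOG drives terminal differentiation, and MYF6 is the factor most abundant in mature fibres. The MEF2 proteins are MADS-box factors that work with them and are held in check by class IIa histone deacetylases, while EYA1 is a transcriptional coactivator and protein phosphatase.

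Levels are given as log2 of the processed spot intensity minus the array's mean over the 42125 tested probes, so that 0 is the average probe. A level depends on the probe as well as on the RNA, so levels of different probes do not rank the genes. Of the 20 probes, 18 were well above background on all 48 arrays. The MYOD1 probe O10952 was so on 47 arrays and the only MYF5 probe, O14091, on 18, which was the nearest to the minimum of 12. The median processed intensity of an array ranged from 52.8 to 108, and between 59.2% and 74.2% of spots were well above background, with overlapping ranges in the 4 groups. Probes of the skeletal muscle markers ACTA1 and CKM lay between 9.41 and 10.69 on the same scale. In whole muscle, fewer cells of a type and less RNA per cell cannot be told apart.

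Sequences are shown for some of the probes. The probes that the naming rule found for PAX7 and MEF2D and the called probe of MYOD1 are given first, in lower case:
PAX7 A_72_P185391: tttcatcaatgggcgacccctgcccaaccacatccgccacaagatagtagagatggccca
MYOD1 A_72_P185276: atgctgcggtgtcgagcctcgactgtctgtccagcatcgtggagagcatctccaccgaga
MEF2D O12895: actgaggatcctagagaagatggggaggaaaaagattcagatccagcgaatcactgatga

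The reference probe of MEF2C, the tested probe of the gene with the highest mean level, had a close match in the related gene MEF2B. The probes below were identical at 51 of 60 positions, and capitals mark the longest run they share, of 16 bases:
MEF2C A_72_P024306: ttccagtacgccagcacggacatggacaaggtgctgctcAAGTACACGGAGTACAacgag
MEF2B A_72_P301754: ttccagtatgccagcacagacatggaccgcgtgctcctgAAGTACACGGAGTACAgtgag

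The MYF5 probe ran on the opposite strand to another probe of the array. The 31 bases shown in capitals lie in O14091, and their reverse complement lies in A_72_P365243, whose gene number is that of MYF5 in RefSeq (Sscrofa11.1 table):
MYF5 O14091: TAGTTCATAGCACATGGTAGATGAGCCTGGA
A_72_P365243: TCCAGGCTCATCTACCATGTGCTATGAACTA

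The question of the first comparison was whether the regulators differed between the lines. In the high RFI line MYOD1 rose at 1 of its 2 probes, MEF2C fell at 1 of its 5 probes and MEF2D fell at its only probe. The other 17 probes did not pass the test, those of PAX7, MYF5, MYOG, MYF6 and MEF2A among them. Thus 3 of the 20 probes were called by limma, fitted on the means of the 4 groups and adjusted by Benjamini-Hochberg over all tested probes, where 16.4% of all tested probes were called. By direction, 1 was called higher, against 6.57% of all tested probes, and 2 lower, against 9.85%. The median line difference was -0.06 over the 20 probes and -0.03 over all tested probes, and 14 of the 20 differences were negative.

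**Figure D1:**
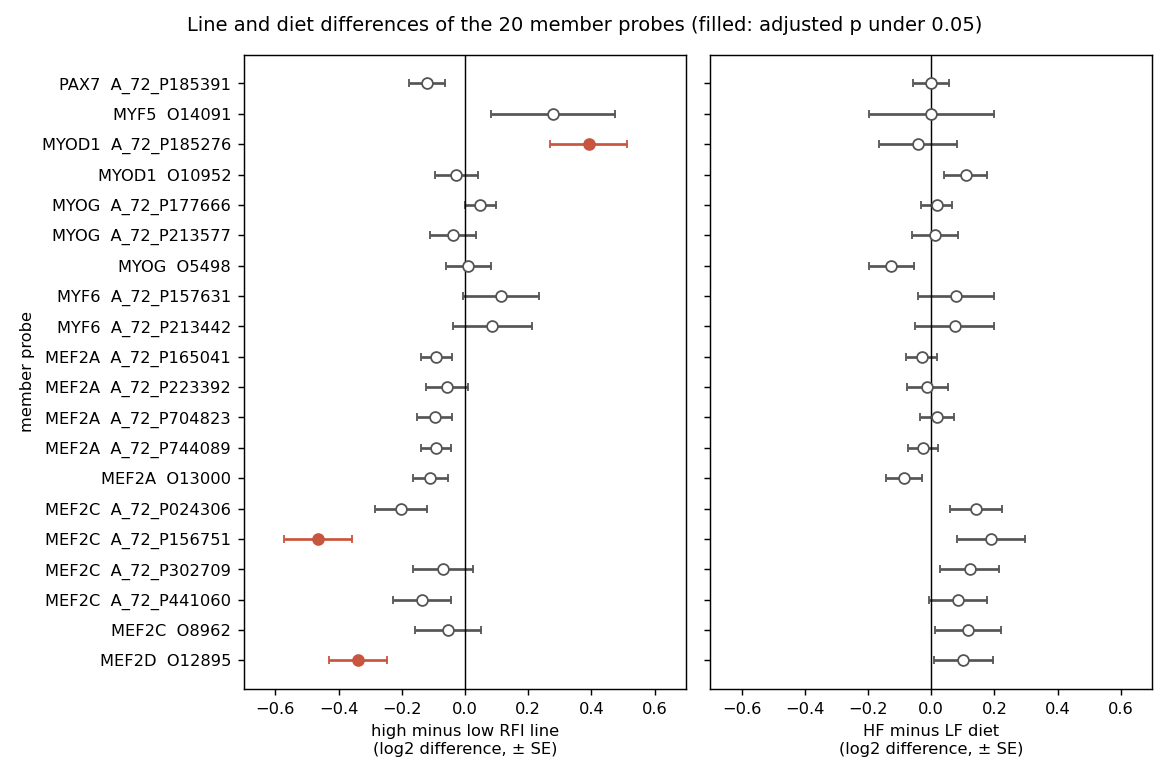
Difference between the lines (left) and between the diets (right) for each of the 20 probes, as log2 difference ± SE on the horizontal axis and probes on the vertical axis. Filled points passed an adjusted p of 0.05: MYOD1 A_72_P185276 at 0.39, MEF2C A_72_P156751 at -0.46 and MEF2D O12895 at -0.34 between the lines, and no probe between the diets.

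MYOD1, the factor that commits activated satellite cells to the muscle lineage, was measured at A_72_P185276 with a lowest, median and highest level of -2.56, -1.55 and -0.96 in the low RFI, HF group and of -2.00, -1.11 and -0.69 in the high RFI, HF group. The same values were -2.45, -1.56 and -0.56 in the low RFI, LF group and -1.73, -1.14 and -0.44 in the high RFI, LF group. The groups overlapped, with 20 of the 24 high RFI pigs above the mean of the low RFI pigs. The high RFI mean was -1.16 ± 0.35 (SD, n = 24) and the low RFI mean -1.55 ± 0.49 (SD, n = 24), which differed by 0.39 ± 0.12 (SE), or 1.31-fold, with an adjusted p of 0.0219. High RFI pigs were higher on all 6 slides, by 0.21 to 0.65. The call was lost when dim probes were not filtered, with a difference of 0.40 and an adjusted p of 0.0623. The difference was 0.24 with normexp background and 0.28 in the authors' deposited values, both still called.

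The other MYOD1 probe, O10952, did not show this difference. It was the dimmer probe, with a mean level of -2.96 against -1.36 at A_72_P185276, and signal near background limits what it can show. The high RFI mean was -2.97 ± 0.23 (SD, n = 24) and the low RFI mean -2.95 ± 0.26 (SD, n = 24). Its line difference was -0.03 ± 0.07 (SE), with an adjusted p of 0.818. Over the 48 pigs, with group means subtracted, both MYOD1 probes had a Pearson r of -0.02 and a Spearman rho of 0.04, with permutation p of 0.887 and 0.787. The difference between both probes in each pig was 0.42 higher in the high RFI line, given as a description because the called probe was chosen by its line difference.

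MEF2D, a MEF2 factor with a muscle isoform that arises by splicing, was measured at O12895. The low RFI, HF group had a lowest, median and highest level of -0.14, 0.24 and 0.69, and the high RFI, HF group -0.74, -0.15 and 0.44. With the LF diet the values were -0.48, 0.08 and 0.56 for low RFI and -0.82, -0.21 and 0.18 for high RFI pigs. The lines overlapped on both diets, with 4 of the 24 high RFI pigs above the low RFI mean and 21 of the 24 low RFI pigs above the high RFI mean. The high RFI mean was -0.20 ± 0.36 (SD, n = 24) and the low RFI mean 0.14 ± 0.28 (SD, n = 24), so the level fell by 0.34 ± 0.09 (SE), or 1.26-fold, with an adjusted p of 0.00947. High RFI pigs were lower on all 6 slides, by between -0.46 and -0.17. The single probe cannot be set against another one for MEF2D.

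MEF2C, a MEF2 factor needed for sarcomere assembly, was called at A_72_P156751. Its lowest, median and highest levels were 3.36, 4.03 and 4.52 in the low RFI, HF group and 2.66, 3.49 and 4.51 in the high RFI, HF group. They were 3.12, 3.71 and 4.44 in the low RFI, LF group and 2.52, 3.36 and 4.03 in the high RFI, LF group. Of the 24 high RFI pigs 2 lay above the low RFI mean. The high RFI mean was 3.42 ± 0.43 (SD, n = 24) and the low RFI mean 3.88 ± 0.33 (SD, n = 24), so the level fell by 0.46 ± 0.11 (SE), or 1.38-fold, with an adjusted p of 0.0022. On 5 of the 6 slides the high RFI pigs were lower, by up to -0.74, and on the remaining slide the lines differed by 0.01.

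The reference probe of MEF2C, A_72_P024306, had a lowest, median and highest level of 3.51, 4.07 and 4.86 in the low RFI, HF group and of 3.37, 3.81 and 4.55 in the high RFI, HF group. In LF pigs the values were 3.54, 3.98 and 4.30 for the low and 3.54, 3.75 and 4.06 for the high RFI line. Its line difference was -0.20 ± 0.08 (SE), with an unadjusted p of 0.018 and an adjusted p of 0.0835 in limma. The other 3 probes of MEF2C had differences of -0.14 (A_72_P441060), -0.07 (A_72_P302709) and -0.05 (O8962), none called. All 5 MEF2C probes thus had a negative difference, of unequal size.

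The line difference of the called MEF2C probe was the largest of the 5. Within each pig, the gap between A_72_P156751 and the mean of the other 4 MEF2C probes differed by -0.35 on average in the high RFI line, with an SD of 0.26 in that line and of 0.15 in the low RFI line (n = 24 each), and lay below the low RFI mean in 22 of 24 high RFI pigs. No test is given, since the probe was chosen by its line difference. The 5 probes followed each other over the pigs, with Pearson r between 0.62 and 0.96 in their 10 pairs after subtraction of group means, each with a permutation p of 1e-05. Which transcripts or exons of MEF2C each probe reads was not analysed here.

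**Figure D2:**
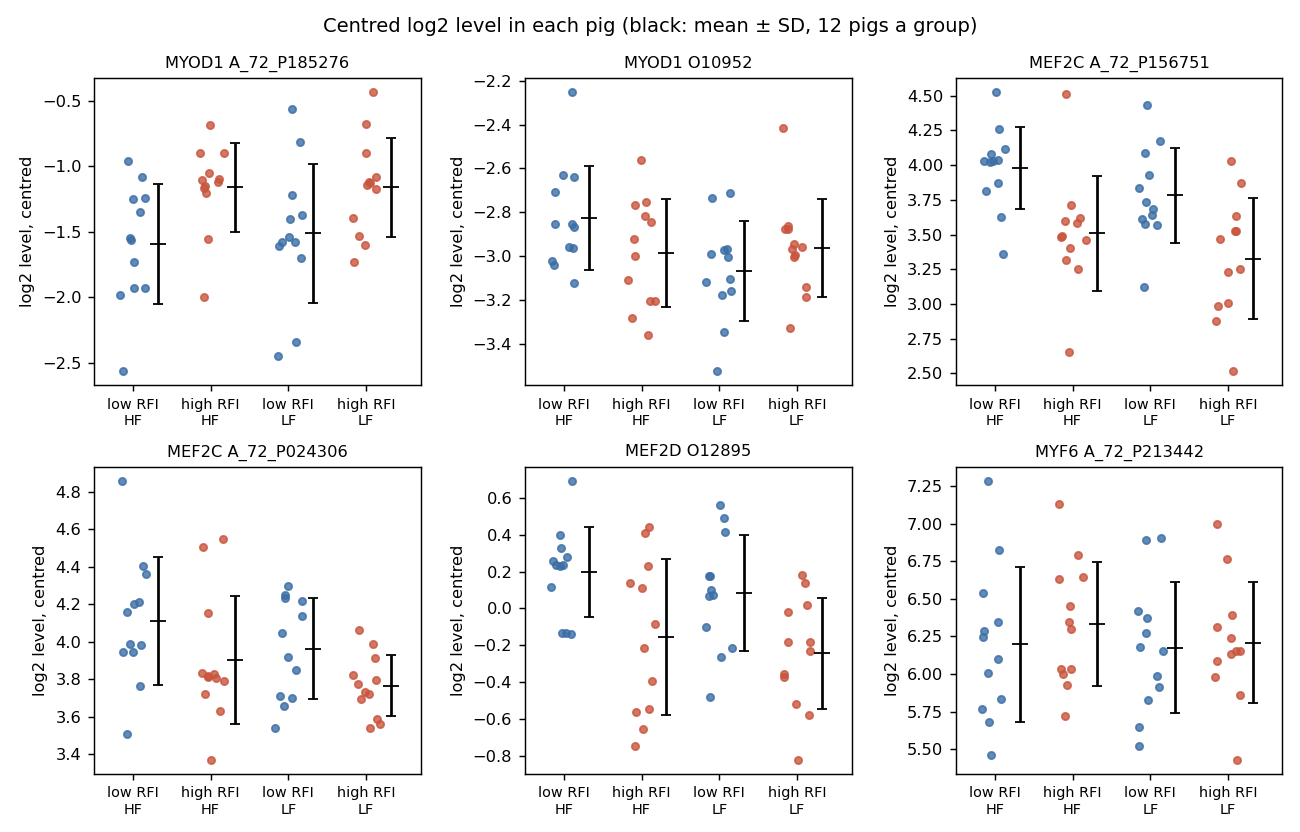
Centred log2 level (vertical axis) of 6 probes in each pig, by line and diet (horizontal axis), with the mean ± SD of the 12 pigs in black. High RFI pigs lie higher at MYOD1 A_72_P185276 and lower at MEF2C A_72_P156751 and MEF2D O12895 on both diets, with overlap, while MYOD1 O10952 and MYF6 A_72_P213442 show no such shift.

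MEF2A, a MEF2 factor expressed broadly in adult tissues, gave small differences, all negative. Its reference probe A_72_P165041 had a lowest, median and highest level of 3.58, 3.96 and 4.23 in the low RFI, HF group and of 3.62, 3.88 and 4.07 in the high RFI, HF group. The LF groups had 3.83, 3.94 and 4.20 in the low and 3.61, 3.89 and 4.31 in the high RFI line. The line difference at this probe was -0.09 ± 0.05 (SE), with an adjusted p of 0.203 in limma. The 5 MEF2A probes had differences from -0.11 to -0.06 and adjusted p from 0.171 to 0.589, so that none was called. The probe A_72_P223392 was an outlier spot on 1 array of the high RFI, HF group, and the fit dropped that value. With the spot kept, its line difference was 0.02.

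PAX7 was measured at A_72_P185391, with a lowest, median and highest level of 0.42, 0.70 and 1.34 in the low RFI, HF group and of 0.27, 0.60 and 0.76 in the high RFI, HF group. In LF pigs these were 0.32, 0.75 and 0.89 for the low and 0.31, 0.59 and 1.08 for the high RFI line. The line difference was -0.12 ± 0.06 (SE), with an unadjusted p of 0.0411 and an adjusted p of 0.142 in limma, and 5 of the 24 high RFI pigs lay above the low RFI mean. A second probe of the array has the same 60 bases and gave a difference of -0.16 ± 0.15 (SE), with an adjusted p of 0.477. In 39 of the 48 pigs both spots agreed within 0.2 of their usual offset, but in 4 pigs they were more than 1 log2 unit apart from it. The corresponding twin of the MEF2C probe A_72_P302709 agreed within 0.2 in all 48 pigs.

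MYF5, the earliest of the bHLH factors, had a lowest, median and highest level at O14091 of -5.98, -4.71 and -3.99 in the low RFI, HF group and of -6.37, -4.21 and -2.71 in the high RFI, HF group. The LF groups had -5.33, -4.53 and -3.64 in the low and -6.68, -4.27 and -3.24 in the high RFI line. The probe was well above background in 5 of 24 low RFI and 13 of 24 high RFI pigs. The probe met the minimum of 12 arrays through the line with the higher mean. The line difference was 0.28 ± 0.20 (SE), with an adjusted p of 0.342 in limma, and no direction is read from it.

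The 3 probes that carry the RefSeq gene number of MYF5 but not its symbol fell outside the naming rule and were looked at after the sequences had been compared. A_72_P216517 and A_72_P365243 were well above background on all 48 arrays, with a Pearson r of 0.90 between them over the pigs, and A_72_P442724 was so on 22 arrays. Their line differences were 0.39 ± 0.20 (SE), 0.37 ± 0.21 (SE) and 0.46 ± 0.30 (SE), with adjusted p of 0.183, 0.218 and 0.298, none called. Their Pearson r with O14091 was 0.30, 0.25 and 0.14, with permutation p of 0.0444, 0.0686 and 0.3. Their Spearman rho was 0.48, 0.42 and 0.30, with permutation p of 0.00086, 0.00271 and 0.0391. Adjusted by Benjamini-Hochberg over the probe pairs compared, the p of r were 0.056, 0.0795 and 0.335 and did not pass. Those of rho were 0.00108, 0.00327 and 0.0436 and passed. A_72_P442724 was well above background in 7 of 24 low RFI and 15 of 24 high RFI pigs, so it too met the minimum through the high RFI line. Since O14091 and A_72_P365243 lie on opposite strands, both cannot read the same strand of MYF5 transcripts, and which one does was not tested. The study's own annotation names A_72_P216517 and A_72_P365243 as MYF6, so that their gene is uncertain. Over the 48 pigs, with group means subtracted, they had a Pearson r of 0.22 and 0.24 with the MYF6 probe A_72_P213442. In RefSeq, MYF5 and MYF6 are neighbours with 0 protein-coding genes between them.

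MYOG was measured at 3 probes, of which the reference probe varied little between pigs. At A_72_P177666 its lowest, median and highest levels were 2.28, 2.59 and 2.76 in the low RFI, HF group and 2.24, 2.60 and 2.95 in the high RFI, HF group. They were 2.23, 2.49 and 2.76 in the low RFI, LF group and 2.37, 2.57 and 3.0 in the high RFI, LF group. The within-group SD of 0.16 lay at percentile 15.6 of all tested probes, and the line difference was 0.05 ± 0.05 (SE), with an adjusted p of 0.525 in limma. The other MYOG probes gave -0.04 (A_72_P213577) and 0.01 (O5498). These 2 probes share 15 bases on opposite strands, and had a Pearson r of -0.11 over the pigs. O5498 and the reference probe had an r of 0.31, with a permutation p of 0.0499. Adjusted by Benjamini-Hochberg over the probe pairs compared, this p was 0.0602 and did not pass.

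MYF6 varied widely between pigs and did not pass the test between the lines. At A_72_P213442 its lowest, median and highest levels were 5.46, 6.17 and 7.28 in the low RFI, HF group and 5.72, 6.32 and 7.13 in the high RFI, HF group. With the LF diet they were 5.52, 6.17 and 6.91 for low RFI and 5.43, 6.15 and 7.0 for high RFI pigs. The highest and the lowest pig differed 3.62-fold, with a within-group SD of 0.44, at percentile 80.2 of all tested probes. The second probe, A_72_P157631, followed it with a Pearson r of 0.994 and a Spearman rho of 0.989 over the 48 pigs, each with a permutation p of 1e-05, and spanned 3.50-fold. The line differences were 0.09 ± 0.12 (SE) and 0.11 ± 0.12 (SE), with adjusted p of 0.681 and 0.555 in limma.

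**Figure D3:**
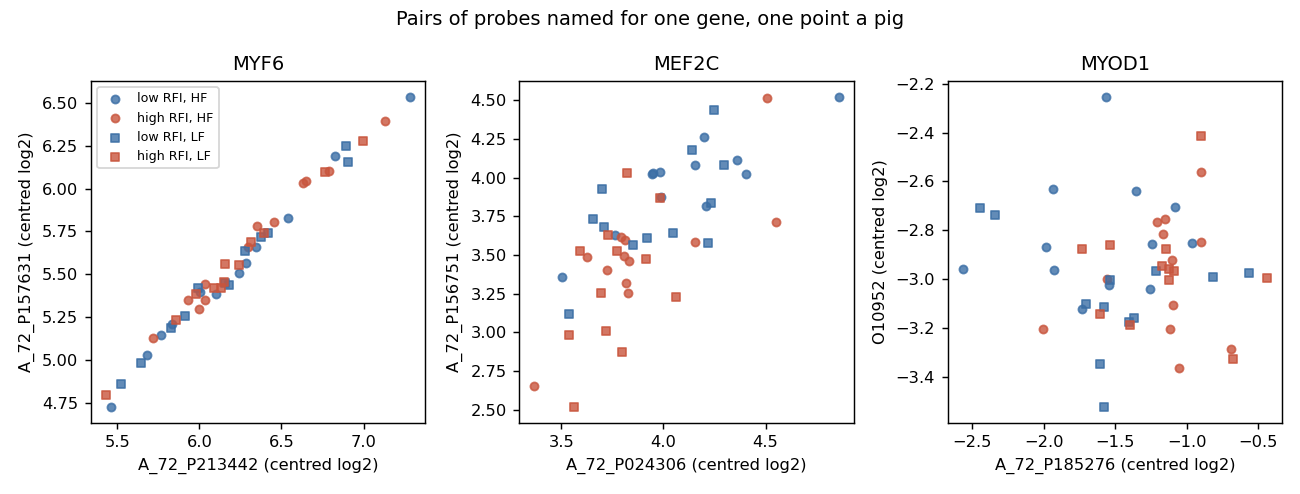
Centred log2 level of one probe against another probe of the same gene, for MYF6, MEF2C and MYOD1, with one point for each of the 48 pigs coloured by line and shaped by diet. The MYF6 probes lie on a line (r = 0.994), the MEF2C probes follow each other with the high RFI pigs low on the vertical axis (r = 0.67), and the MYOD1 probes show no relation (r = -0.02); each r was taken with group means subtracted.

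Within the diets, with 12 pigs a group, fewer probes passed. On the HF diet 1 of the 20 probes was called, MEF2C A_72_P156751 at -0.47 with an adjusted p of 0.0485 in limma, against 6.39% of all tested probes. On the LF diet the same probe differed by -0.46 with an adjusted p of 0.0929. None of the 20 probes was called on that diet, against 2.47% of all tested probes. At an unadjusted p under 0.05 were 3 of the 20, where 16.47% of all tested probes were. MYOD1 A_72_P185276 differed by 0.43 and 0.35 and MEF2D O12895 by -0.35 and -0.33 on the HF and LF diets, with adjusted p between 0.0884 and 0.296. The interaction of line and diet had unadjusted p of 0.936, 0.741 and 0.887 for the MEF2C, MYOD1 and MEF2D probes. The HF call for MEF2C was lost under 4 of the 10 other settings.

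The second comparison asked whether the diet moved the same genes. No probe of the regulators was called between the diets by limma, against 0.42% of all tested probes. At an unadjusted p under 0.05 were 0 of the 20, where 13.09% of all tested probes were. The HF minus LF differences ran from -0.13 (MYOG O5498, unadjusted p of 0.082) to 0.19 (MEF2C A_72_P156751, unadjusted p of 0.0824), with SE from 0.05 to 0.20. All 5 MEF2C probes had a higher mean on the HF diet, by 0.08 to 0.19. Within the low RFI line 0 of 20 probes were called, against 0.199%, and within the high RFI line 0 of 20, against 0% of all tested probes. At an unadjusted p under 0.05 were 1 and 0 of them, against 11.64% and 5.47% of all tested probes. The interaction of line and diet was not called for any of the 20 probes, against 0% of all tested probes. None of the 20 had an unadjusted p under 0.05, where 4.45% of all tested probes did. The smallest was 0.0577, for MYOD1 O10952.

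The partners and targets of these factors were taken from 6 lists with 77 genes, of which 60 had a tested probe. Between the lines 25 of their 132 probes were called by limma, 11 higher and 14 lower in high RFI pigs. This is 18.9%, against the 16.4% of all tested probes. None was called between the diets, against 0.42% of all tested probes. There 13 of the 132 had an unadjusted p under 0.05, where 13.09% of all tested probes did. The median line difference of these probes was -0.02, against -0.03 over all tested probes.

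The targets of MYOD1, MYOG and MEF2 held the largest differences. Of their 47 probes 8 were called higher and 8 lower, against 6.57% and 9.85% of all tested probes. Higher in the high RFI line were MYH3, the embryonic myosin heavy chain, by 1.24 ± 0.34 (SE, adjusted p of 0.00906), and TNNT2, the cardiac and embryonic troponin T, by 1.05 ± 0.31 (SE, adjusted p of 0.0162). CHRNA1, the acetylcholine receptor alpha subunit, was higher by 0.78 ± 0.20 (SE, adjusted p of 0.00541). CDKN1A, an inhibitor of the cell cycle, was higher at all 4 of its probes, by 0.52 to 0.56, with adjusted p of 0.00675 to 0.0109. SLC2A4, the insulin-responsive glucose transporter, was also called at 1 probe, by 0.59, but that probe was well above background in 4 low RFI and 10 high RFI pigs only and met the filter through the line where it was higher, so that no change is read from it. The lower genes, named after their values were seen, were CKM, the muscle creatine kinase, at 6 of 11 probes by -0.16 to -0.13, and SMYD1, a muscle histone methyltransferase, at 2 of 3 probes by -0.25 and -0.24.

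MYH3 and CHRNA1 also spread widely within a line. The high RFI mean of MYH3 was 4.14 ± 1.5 (SD, n = 24) and the low RFI mean 2.90 ± 1.04 (SD, n = 24). For CHRNA1 the high RFI mean was -1.98 ± 0.82 (SD, n = 24) and the low RFI mean -2.76 ± 0.58 (SD, n = 24). Within the LF diet CHRNA1 was also called, by 1.02 with an adjusted p of 0.0371 in limma. The interaction of line and diet was called for 0 target probes, against 0% of all tested probes, so no difference between the diets is read from this.

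Of 27 tested probes of bHLH inhibitors 2 were called, both higher in the high RFI line, by 0.21 and 0.23, against the 6.57% of all tested probes called higher. Both belonged to HEY1, a transcriptional repressor downstream of Notch. At these probes the line difference was 0.36 and 0.36 on the HF diet, with adjusted p of 0.0356 and 0.0386. It was 0.06 and 0.10 on the LF diet, with adjusted p of 0.819 and 0.693, while the interaction had an adjusted p of 0.999. Within the HF diet 3 of the 27 probes were called, all higher and all of HEY1, where 6.39% of all tested probes were called. Between the lines 15 probes of the list had an unadjusted p under 0.05, where 31.03% of all tested probes did. The median difference was 0.20, with 0.31 on the HF and 0.09 on the LF diet. MDFI, an inhibitor that binds the myogenic factors, went the other way at 2 of those 15 probes, by -0.11 and -0.15, with adjusted p of 0.0583 and 0.0685. The ID proteins, which bind E proteins and keep them from the myogenic factors, differed by 0.28 (ID1, adjusted p of 0.202), by 0.25 to 0.33 at the 6 probes of ID2 (adjusted p of 0.0792 to 0.12) and by 0.25 and 0.27 at those of ID3 (adjusted p of 0.0595 and 0.0523). Of the E proteins none of 4 probes was called, and TCF12, at an unadjusted p of 0.0342, differed by 0.12 with an adjusted p of 0.127.

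Among repressors and coactivators 5 of 23 tested probes were called, all lower in the high RFI line, against the 9.85% of all tested probes called lower. They belonged to SMARCD3, a muscle subunit of the SWI/SNF remodelling complex that MYOD1 recruits, at both probes by -0.24 and -0.19, to EP300, a histone acetyltransferase, at 2 of its 7 probes by -0.19 and -0.18, and to TEAD1, a factor that binds the M-CAT element of muscle genes, by -0.15. No probe carried the name HDAC4, and the only HDAC5 probe was well above background on 3 arrays. Of 16 probes of satellite cell genes 1 was called higher, against 6.57% of all tested probes. It belonged to the adhesion protein VCAM1 and differed by 0.35 with an adjusted p of 0.00413, while the other VCAM1 probe differed by -0.01.

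**Figure D4:**
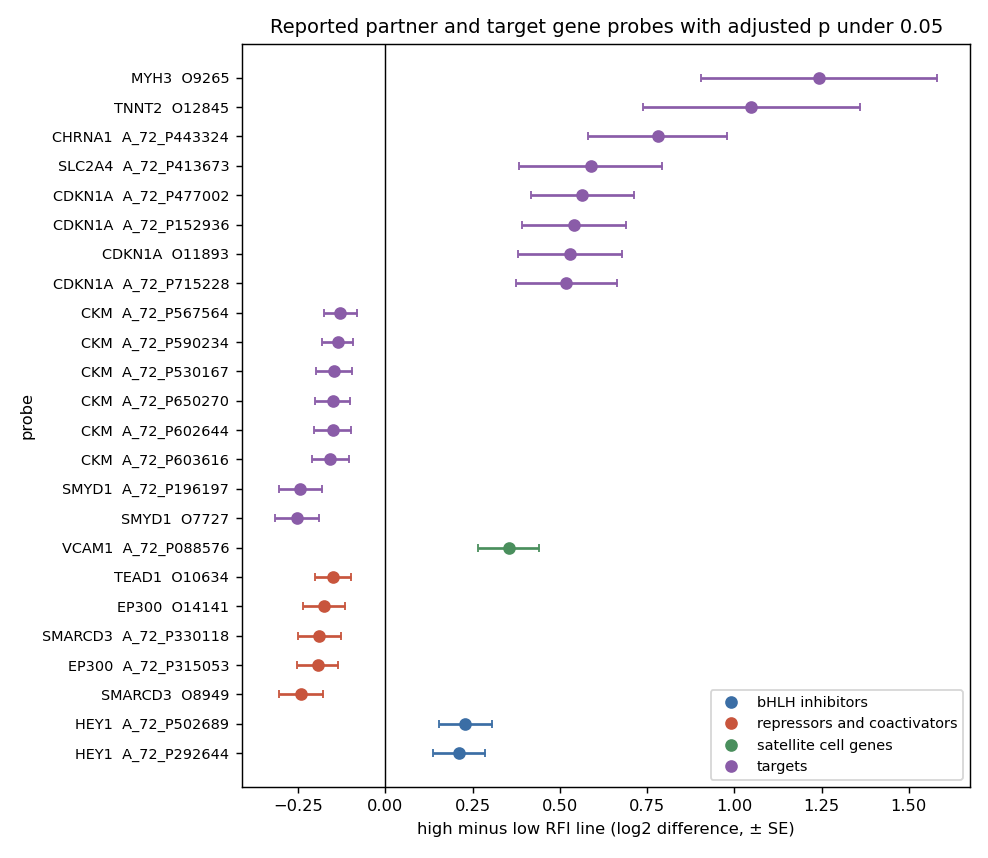
Line difference of 24 of the 25 called probes of partners and targets, as log2 difference ± SE on the horizontal axis, with probes on the vertical axis coloured by list. Differences run from -0.25 (SMYD1) to 1.24 (MYH3), and the largest are those of higher targets.

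Markers of cell types were also called between the lines, where 6.57% of all tested probes were called higher and 9.85% lower. Of the 12 tested macrophage probes 5 were called higher in high RFI pigs, with a median difference of 0.47 over the list, and the list's mean level ran from -3.24 to -1.73 and from -2.73 to -1.63 in the low RFI, HF and LF groups and from -2.48 to -0.70 and from -2.48 to -1.21 in the high RFI ones. Of 25 adipocyte probes 8 were called higher, all of FABP4, as were 2 of 22 fibroblast probes, both of COL1A1, and 2 of 16 endothelial probes. The median line difference of the adipocyte list was 0.21, with 0.49 on the HF and -0.22 on the LF diet. Of 60 skeletal muscle probes, those of the target CKM among them, 13 were called lower. The satellite cell markers include PAX7 and MYF5, so their count repeats in part the results above. None of the 6 satellite cell marker probes, 0 of 15 smooth muscle and 0 of 6 T cell probes were called. At an unadjusted p under 0.05 in limma were 2, 2 and 0 of them, where 31.03% of all tested probes were. Of 6 Schwann cell and nerve probes 2 were higher and 1 lower. The part of these shifts in the differences of MYOD1, MEF2C and MEF2D was not tested.

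The last comparison asked which regulators followed each other from pig to pig. Over the reference probes, 60 relations were computed, with group means subtracted, and 4 passed a Benjamini-Hochberg adjusted p of 0.05 for Pearson's r, all 4 positive. With Spearman's rho 8 passed. Beyond the relations described below, they were MEF2A with MEF2C (rho of 0.39), MEF2A with MYH4 (0.40) and MEF2C with MYH2 (0.43). Each of these had an adjusted permutation p of 0.0495. MEF2C and MEF2D had an r of 0.46 and a rho of 0.46, with permutation p of 0.00155 and 0.00165 and adjusted p of 0.0366 and 0.033, and r was 0.34 without the 2 pigs farthest from the MEF2C median. With the mean of all MEF2C probes in place of its reference probe, the one that resembles MEF2B, r was 0.09. PAX7 and MEF2D had an r of 0.41 and a rho of 0.40, with permutation p of 0.00244 and 0.00581 and adjusted p of 0.0366 and 0.0495, and r was 0.40 without 2 pigs. With slide means subtracted as well, r was 0.32 and the adjusted p 0.161, so that this relation did not pass within slides. MYOD1 and CHRNA1 had an r of 0.46 and a rho of 0.48, with permutation p of 0.00091 and 0.001 and adjusted p of 0.0366 and 0.03, and r was 0.43 without 2 pigs.

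MEF2A and the fast myosin gene MYH2 had an r of 0.44 and a rho of 0.48, with permutation p of 0.00231 and 0.00095 and adjusted p of 0.0366 and 0.03. Without 2 pigs r was 0.38. After quantile normalization r was 0.05 for this pair, and with the mean of all tested probes of each gene it was -0.21. The relation thus depended on the normalization and on the probes used. With the mean of all tested probes of each gene in place of the reference probe, none of the 60 relations passed and 4 had an unadjusted p under 0.05. PAX7 and CHRNA1 ran in opposite directions, with an r of -0.38 and a rho of -0.40, permutation p of 0.00624 and 0.00657 and adjusted p of 0.0535 and 0.0495, and the relation passed for r with slide means subtracted (r of -0.42, adjusted p of 0.0236) and after quantile normalization (r of -0.40, adjusted p of 0.0468). MYF6 and MYOG had no relation among the 60 that passed for r, with r for MYF6 from -0.24 to 0.26 and for MYOG from -0.17 to 0.36. After quantile normalization MYOG and the myosin gene MYH4 did pass, with an r of 0.45 and an adjusted p of 0.0279. Without it their r was 0.25 and the adjusted p 0.497.

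**Figure D5:**
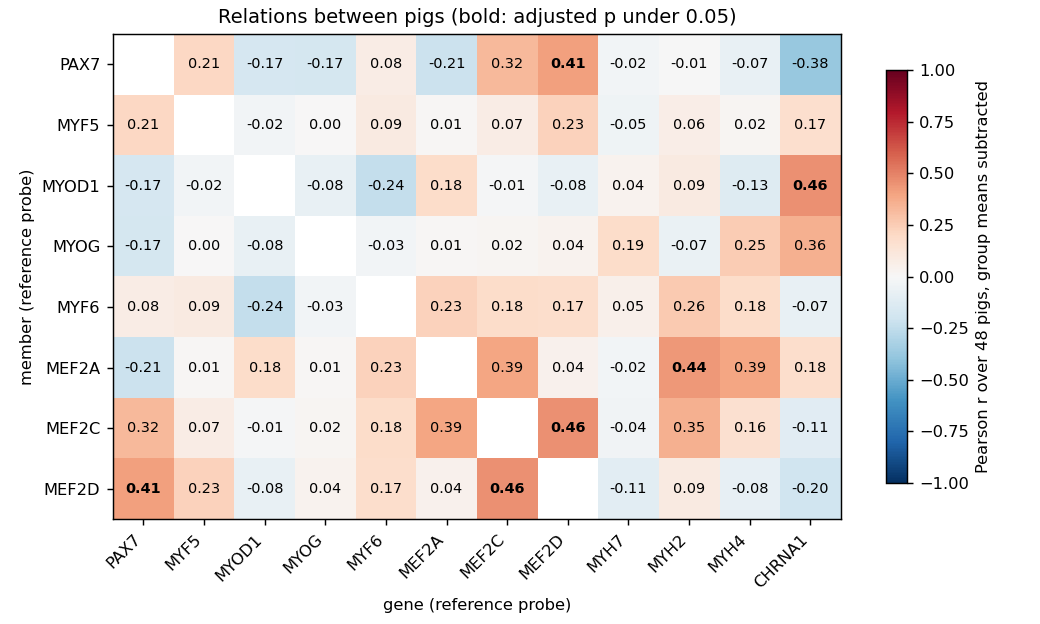
Pearson r over the 48 pigs between the reference probes of the 8 genes (rows) and of the same genes, 3 myosin heavy chain genes and CHRNA1 (columns), with group means subtracted. Colour gives r from -1 to 1, and bold values passed an adjusted p of 0.05, of which the highest is 0.46.

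The genes whose pattern over the 48 pigs was most like that of a regulator are given as a description, with group means subtracted and no test; the points share arrays and their centring. For MYF6 they were XIRP1, a protein of intercalated discs and injured myofibrils, with an r of 0.77, ZFAND5 with 0.75 and BAG3, a chaperone partner at the Z-disc, with 0.74. For MEF2C the nearest was the look-alike MEF2B probe shown above, with an r of 0.92, higher than with any other MEF2C probe, where A_72_P024306 reached 0.86 at most, and the MEF2B probe differed between the lines by -0.19 with an adjusted p of 0.0958. After it came WBP4 with 0.67 and PALMD with 0.67.

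For MEF2D the nearest genes were TAB2 with an r of 0.76, TRIP10 with 0.76 and KDM5C with 0.75. For PAX7 they were ESR1 with 0.73, CEACAM19 with 0.71 and EPB42 with 0.70, and those of MEF2A included SETD6 with 0.71 and SSR2 with 0.69. MYOD1 was nearest to EFEMP2 with 0.64, SLC44A2 with 0.62 and MTCH1 with 0.62, and MYOG to RASSF2 with 0.65, KCNE3 with 0.60 and OSTM1 with 0.58. MYF5, at its dim probe, had the lowest values, with 0.57 for ENTPD5, POLR3GL and PDE4A alike, and these fell to between 0.40 and 0.43 without the 2 pigs farthest from the MYF5 median.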

How the data were processed

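Longissimus muscle RNA of 48 barrows was hybridised on 1-colour Agilent pig arrays, 1 array per pig, on 6 slides that each held 2 pigs of every group. The authors deposited Feature Extraction spot intensity files and a table of log2 values over 34472 probes (log2 of the median signal minus an array centre, within 0.001 for 100% of rows), used as an alternative. The files name no genome build, so no coordinates are given, and RefSeq's Sscrofa11.1 gene table was used for names.

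Control and outlier spots were left out, spots of one probe averaged, and log2 processed signals centred by subtracting the array's mean of the 42125 tested probes (those well above background on 12 or more arrays), with 169 missing values. The 4 group means entered a limma fit (3.58.1, R 4.3.3), with Benjamini-Hochberg adjustment at 0.05; the fit was tested on simulated data. Relations used Python 3.11.15, numpy 2.4.6 and scipy 1.17.1, with two-sided permutation tests of 100000 permutations within groups; probe pairs of one gene used the same test. Probe sequences were searched for shared runs of at least 15 bases on both strands.

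Every regulator is named, with full values for its reference probe and each called probe. From each list of partners and targets at most 5 called genes are named, by size, beside HDAC4, HDAC5, ID1, ID2, ID3, TCF12, CHRNA1 and CDKN1A; some genes and lists that this rule takes in are not reported here. The genes and lists were chosen with earlier results of these data known. Alternatives tried were other scaling, background correction, filters, outlier spots kept, slide as a block, the deposited table, a variance analysis without moderation and leaving out 2 arrays. Labels do not tie pigs to litters, so p-values measure the spread between pigs only. The number of arrays limits the precision.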

Additional observations from a re-analysis of the deposited data

How the results depend on the processing

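The 3 probes called between the lines were MYOD1 A_72_P185276, MEF2C A_72_P156751 and MEF2D O12895. The last 2 were called under all 10 alternatives, with differences of -0.47 to -0.43 and -0.35 to -0.25, and MYOD1 under 9 of 10, with 0.24 to 0.45 and adjusted p up to 0.0623, reached when no dim probe was filtered out. The count on the HF diet was 0 in place of 1 with normexp background, without the filter and with the variance analysis. It was also 0 without the 2 arrays farthest on the principal components. Both were of the high RFI, HF group, numbers 6 and 10 in the order of its samples. The counts on the LF diet, between the diets and for the interaction stayed at 0. Of the 132 partner and target probes 25 were called, where 16.4% of all tested probes were. The count was 16 with quantile normalization (14.9% of all tested probes), 11 of 137 without the filter (6.42%) and 16 without the 2 arrays (14.3%). With slide as a block it was 35, where 20% of all tested probes were called. The other settings gave 20 to 26, against 13.5% to 18.9% of all tested probes. The 4 relations became 7 with group and slide means subtracted, PAX7 with MEF2D no longer among them, and 0 with the mean of a gene's probes. Those that passed only with slide means subtracted as well included PAX7 with MEF2C (r of 0.44), MEF2A with MEF2C (0.39) and MEF2A with MYH4 (0.49). The cause of these changes was not tested.

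Of 394 single differences recomputed, 376 kept direction and side of the threshold, and 17 uncalled ones changed sign. The diet difference of PAX7 was 0.0226 with the 75th percentile, 0.0228 with quantile normalization, 0.0044 with normexp, 0.0103 for probes well above background on all arrays, 0.0165 in the deposited table and 0.0062 without the 2 arrays. That of MYF5 was -0.0761 with quantile normalization, that of MYOD1 A_72_P185276 0.0195 without the 2 arrays, and that of MYOG A_72_P213577 -0.0060 and -0.00034 under those settings. For MEF2A A_72_P223392 the line difference was 0.0245 with outlier spots kept and 0.0316 in the deposited table, and the diet difference 0.0125 with the 75th percentile, 0.0057 with quantile normalization, 4.9e-05 for probes well above background on all arrays, 0.0696 with outlier spots kept and 0.0891 in the deposited table. No paired analysis was possible, because the labels give every pig the same replicate number and do not pair pigs between groups. Signal near background limits MYF5 and MYOD1 O10952.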
